A study of Danio rerio with 18 samples.

Results

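Transcripts whose level moved in one direction across keratinocytes, neutrophils and macrophages were sought in zebrafish larvae that carried oncogenic HRas in the skin. All libraries with HRasG12V (V12) were compared with all libraries with control HRas (Ctrl), over the keratinocyte (Krt), neutrophil (Lyz) and macrophage (Mpeg) libraries together, as the mean of the 3 effects within cell types. The comparison used 17 of the 18 libraries: 3 Krt V12, 3 Lyz V12 and 3 Mpeg V12, against 3 Krt Ctrl, 3 Lyz Ctrl and 2 Mpeg Ctrl. Mpeg Ctrl replicate 3 was left out, with 16990 counts in all. Larvae of 3 days post fertilisation had received, as embryos of 1 cell, a Tol2 plasmid with the krt4 promoter and RFP-HRasG12V (V12), or the same plasmid with RFP-HRas (Ctrl), so that the control larvae also carried an extra HRas in the superficial epidermis. For Krt libraries a krt4-GFP-L10a plasmid was injected with it into wildtype larvae. Lyz and Mpeg libraries came from Tg(LyzC:EGFP-L10a) and Tg(mpeg1:EGFP-L10a) larvae, in which the promoters of lysozyme C and of macrophage-expressed gene 1 drive the tag. Each library was made from 50 pooled larvae, injected larvae are mosaic for plasmids, and the replicate number of a library is also its batch number.

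In translating ribosome affinity purification (TRAP), the ribosomal protein L10a carries GFP in 1 cell type, and tagged polysomes are drawn out of a homogenate of whole larvae with the RNA they are translating. RNA of untagged cells that passes through the precipitation is sequenced with it. HRas is a small GTPase that passes growth factor signals to the MAPK and PI3K pathways, and G12V locks it in the active state. In zebrafish, skin cells that express HRasG12V draw neutrophils and macrophages to them. Thioredoxin is a small oxidoreductase that keeps protein thiols reduced.

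The 17 libraries held 6206924 to 14781123 counts, of which 72.4 to 94.7% fell on the 10 features most abundant over these libraries together. Outside these, the V12 libraries held 385201 to 2623922 counts (median 1307234) and the Ctrl libraries 401138 to 1569328 (median 765526.5). The V12 library was the deeper one in 7 of the 8 pairs of one cell type and replicate number, with ratios of 0.928 to 2.28, and the part of depth in the results below was not tested beyond 2 fits that bear on it. Marker transcripts followed the labels in part. The neutrophil marker lyz averaged 38.9 TPM in Lyz libraries, against 0.673 in Krt and 2.99 in Mpeg. The macrophage marker IRF8 averaged 4.68 TPM in Mpeg libraries, against 0.0417 in Krt and 0.0133 in Lyz. The neutrophil markers npsn and cebp1 were also highest in Lyz. For mmp13a the values were close (0.762 TPM in Lyz, 0.625 in Krt). TPM were not scaled by TMM, so no order is drawn from so small a difference. NCF1 and CSF3R were higher in Mpeg (4.38 and 0.566 TPM) than in Lyz (1.17 and 0.112 TPM). Keratinocyte markers differed less sharply: 10 of 11 differed in level among cell types (edgeR). Cyt1 had 138 TPM in Krt, against 48.9 in Lyz and 77.9 in Mpeg. For krt4, whose promoter drives the tag in Krt, the order of Krt and Mpeg depended on the scale. Its TPM averaged 517 in Krt, 250 in Lyz and 665 in Mpeg. In CPM (its share of a library's counts, scaled by TMM) krt4 had 2032 to 3491 in Krt libraries. On that scale it had 550 to 1207 CPM in Lyz and 893 to 2028 in Mpeg, so Krt was highest.

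HRasG12V raised 54 genes and lowered 3 on average over the 3 cell types, of 16011 tested (edgeR quasi-likelihood test, adjusted p at most 0.05), which is 0.337% higher, 0.0187% lower and 0.356% in all; 1495 genes (9.34%) had an unadjusted p under 0.05. Of the 54, 52 (0.325% of the genes tested) had a higher mean in V12 in each of the 3 cell types, and 1 of the 3 lower genes, SV2A, was lower in each (0.00625%). By role, 25 of the 57 encode proteins of striated muscle, 8 are genes of leukocytes, 7 belong to inflammation, the acute phase or the matrix, 6 to the cytoskeleton or cell membrane and 2 to redox metabolism. The 3 lower genes are 2 of photoreceptors and 1 of synapses, and 6 genes have other or no named roles. These groups were drawn after the values were seen.

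The test of a difference among cell types called 1 of the 57 genes, DES. Of the 54 higher genes, 37 had their largest effect in Krt, 11 in Lyz and 6 in Mpeg. An unadjusted p under 0.05 within the cell type was reached by 51 of the 57 in Krt, 40 in Lyz and 29 in Mpeg, and by 14 in all 3. A stricter test that took the largest of the 3 p-values called 0 genes in edgeR and 0 in DESeq2 after adjustment, and 18 genes, all higher in V12, had an unadjusted p under 0.05 in every cell type (0.112% of the genes tested). V12 stood above Ctrl in 8 of 8 pairs for 25 of the higher genes (background 1.62%), and SV2A stood below in 8 of 8 (background 0.837%). The 57 genes were selected on these same libraries, so such counts describe them and are not separate support. With only the Lyz and Mpeg effects averaged, 1 gene passed, the muscle creatine kinase ckma. Leaving out Lyz instead gave 34 calls, of which 29 were among the 57 genes. Leaving out Mpeg gave 57 calls, which were not the same genes: 39 were shared. Without Mpeg Ctrl replicate 1 the 54 higher genes became 20, without Lyz V12 replicate 1 they became 30, and without Lyz Ctrl replicate 2 they became 88, while the lower genes ranged from 0 to 13 over the 17 libraries left out. Without a term for the replicate number 22 of the 57 genes were called.

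**Figure D1:**
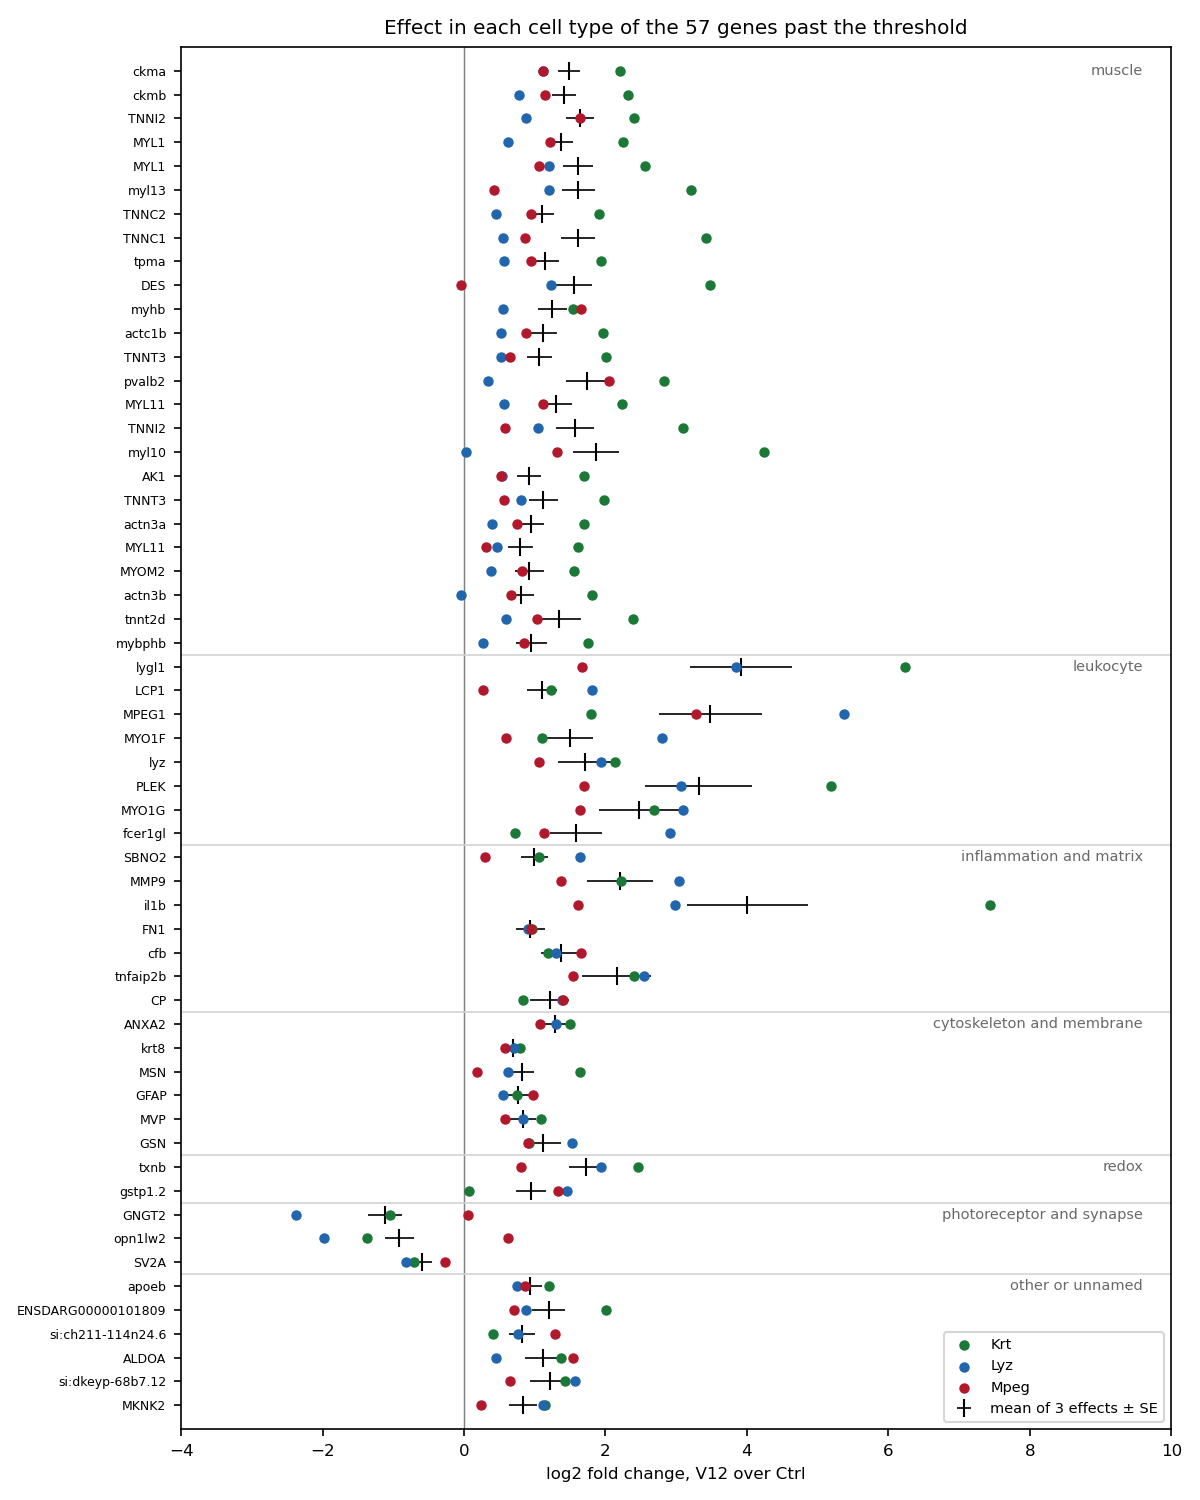
Log2 fold change of V12 over Ctrl within each cell type (coloured points) and their mean with its SE (black) for the 57 genes past the threshold, grouped by role; names that occur more than once are separate genes. The green Krt points lie farthest to the right for 24 of the 25 muscle genes, whereas the 3 points of FN1, krt8 and ANXA2 lie close together.

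Skeletal muscle transcripts made up the largest group, with their largest effects in the keratinocyte libraries. The difference among cell types had an unadjusted p under 0.05 for 22 of the 25 and passed after adjustment for DES alone (edgeR). The creatine kinases ckma and ckmb, which regenerate ATP in the fibre, fast troponins (TNNI2, TNNC2, TNNT3), myosin light and heavy chains (MYL1, myl13, MYL11, myl10, myhb), tropomyosin (tpma), sarcomeric actin (actc1b), parvalbumin (pvalb2), desmin (DES) and alpha-actinins (actn3a, actn3b) were among the genes past the threshold. Of the 49 tested members of a list of skeletal muscle genes, 20 rose (40.8%), against 0.337% of all genes tested, and 0 fell. All 49 had a positive mean effect, against 8492 of all 16011 genes tested. In all 3 cell types 36 were positive, against 18.1% of all genes tested. The median effect of the list was 0.89 on the log2 scale, against 0.03 for all genes tested, and within cell types it was 1.73 in Krt, 0.39 in Lyz and 0.69 in Mpeg.

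The creatine kinase ckma had 90.8, 81.6 and 50.5 CPM (its share of a library's counts, scaled by TMM) in the 3 Krt V12 libraries, against 18.6, 17.5 and 11.7 in the 3 Krt Ctrl libraries. In Lyz libraries it had 50.1, 32.9 and 17.2 CPM with V12, against 20.5, 20.8 and 5.201 with Ctrl, and in Mpeg libraries 47.6, 50.6 and 23.6 with V12, against 24.2 and 21.6 with Ctrl. The groups did not overlap in Krt and overlapped in Lyz and Mpeg, where replicate 3 was the lowest V12 library, and V12 was higher in 8 of 8 pairs. The mean effect was 1.48 ± 0.16 (log2 fold change ± SE, adjusted p = 9.95e-07 by edgeR), with effects of 2.20 in Krt, 1.12 in Lyz and 1.12 in Mpeg. Of the 57 genes ckma was the 1 called under each of the 37 alternatives tried.

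Other fibre genes repeated this order. TNNI2 (ENSDARG00000029069), the inhibitory subunit of fast troponin, had 40.6, 34.7 and 37.97 CPM in Krt V12, against 7.295, 12.2 and 4.61 in Krt Ctrl. In Lyz it had 27.3, 17.8 and 6.67 CPM with V12, against 14.2, 7.38 and 5.46 with Ctrl, and in Mpeg 23.4, 29.4 and 10.4 with V12, against 6.35 and 9.16 with Ctrl. Krt and Mpeg groups were apart and Lyz groups overlapped, and the mean effect was 1.64 ± 0.20 (adjusted p = 9.84e-06, edgeR). Tropomyosin tpma, among the most abundant of the list, had 394, 551 and 323 CPM in Krt V12, against 130, 131 and 77.1 in Krt Ctrl, a gap that the Lyz libraries did not show: there it had 289, 138 and 85.3 CPM with V12, against 152, 179 and 35.9 with Ctrl. Its effects were 1.94 in Krt, 0.57 in Lyz and 0.94 in Mpeg (adjusted p of the mean = 0.000843, edgeR). Over the 25 muscle genes past the threshold, the V12 and Ctrl libraries were apart for 25 in Krt, 0 in Lyz and 6 in Mpeg. Of all genes tested, 6.75, 7.71 and 9.58% had V12 above Ctrl without overlap in those cell types. Selection on the same values favours such gaps, so the counts only describe these genes.

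Slow and fast fibre genes were both in this group. TNNC1 (ENSDARG00000037539), the troponin C of slow and cardiac muscle, had 18.4, 20.7 and 17.8 CPM in Krt V12, against 1.46, 2.55 and 1.54 in Krt Ctrl, a clear gap, and in Lyz 18.2, 9.03 and 6.67 CPM with V12, against 9.495, 9.502 and 4.42 with Ctrl, where the groups overlapped. In Mpeg it had 5.16, 8.33 and 2.18 CPM with V12, against 1.36 and 4.99 with Ctrl, and its effects were 3.42 in Krt, 0.55 in Lyz and 0.86 in Mpeg (adjusted p of the mean = 0.000272, edgeR). Sarcomeric actin actc1b had 321, 387 and 213 CPM in Krt V12, against 89.8, 84.01 and 57.6 in Krt Ctrl, and in Lyz 243, 109 and 72.8 CPM with V12, against 98.3, 184 and 33.03 with Ctrl. Lyz Ctrl replicate 2 was thus above 2 of the 3 Lyz V12 libraries, whereas the Mpeg groups were apart, with 135, 143 and 91.8 CPM with V12, against 76.4 and 91.6 with Ctrl. Parvalbumin pvalb2, the calcium buffer of fast fibres, had 62.7, 55.1 and 50.2 CPM in Krt V12, against 17.5, 10.2 and 4.47 in Krt Ctrl, and in Lyz 21.1, 26.7 and 4.94 CPM with V12, against 42.7, 7.09 and 0.7802 with Ctrl. Its highest Lyz value was thus that of Lyz Ctrl replicate 1. In Mpeg it had 67.6, 84.1 and 10.4 CPM with V12, against 15.3 and 16.1 with Ctrl, with V12 replicate 3 below both Ctrl libraries, and its effects were 2.82 in Krt, 0.34 in Lyz and 2.04 in Mpeg (adjusted p of the mean = 0.00133, edgeR). The embryonic heavy chain myhb departed from the order of the others, with effects of 1.54 in Krt, 0.55 in Lyz and 1.66 in Mpeg. Adenylate kinase AK1 (0.92 ± 0.17), the M-band protein MYOM2 (0.92 ± 0.20), the myosin-binding protein mybphb (0.95 ± 0.22) and the troponin T tnnt2d (1.34 ± 0.31) had their largest effect in Krt.

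Summed over the 49 genes, the muscle level was 3569 to 4662 CPM in Krt V12, against 1182 to 1821 in Krt Ctrl. It was 949 to 3742 CPM in Lyz V12, against 597 to 2245 in Lyz Ctrl, and 2070 to 2920 in Mpeg V12, against 1584 to 1782 in Mpeg Ctrl. Ctrl libraries of the 3 cell types thus held muscle transcripts in overlapping amounts, and 17 of the 49 genes differed in level among cell types (13.9% of all genes tested did), with both constructs counted. Muscle fibres are not cells in which these promoters drive the tag, and libraries from larvae without a tag were not analysed here, so tagged and carried-over RNA cannot be told apart in these values. In such bulk samples more cells of a type and more RNA per cell cannot be told apart either.

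2 muscle genes past the threshold did not share 1 direction. Desmin (DES), the intermediate filament of muscle, had 34.4, 39.3 and 19.1 CPM in Krt V12, against 2.08, 3.68 and 2.37 in Krt Ctrl, and 3.13, 3.8 and 4.19 in Mpeg V12, against 2.72 and 5.66 in Mpeg Ctrl. Its effects were 3.48 in Krt, 1.23 in Lyz and -0.05 in Mpeg, and it was the only 1 of the 57 whose effect differed among cell types (adjusted p = 0.0424, edgeR), of 6 such genes among all tested (0.0375%; 3.88% at an unadjusted p under 0.05). The Z-disc protein actn3b had effects of 1.81 in Krt, -0.04 in Lyz and 0.66 in Mpeg (adjusted p of the mean = 0.0364). The most abundant fast myosin heavy chain of the list, myhz1.1, did not pass, at 0.70 ± 0.21 (adjusted p = 0.194, edgeR). Of 4 cardiac muscle genes tested, 0 passed in edgeR or DESeq2 and 1 had an unadjusted p under 0.05, with a median effect of 0.38.

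**Figure D2:**
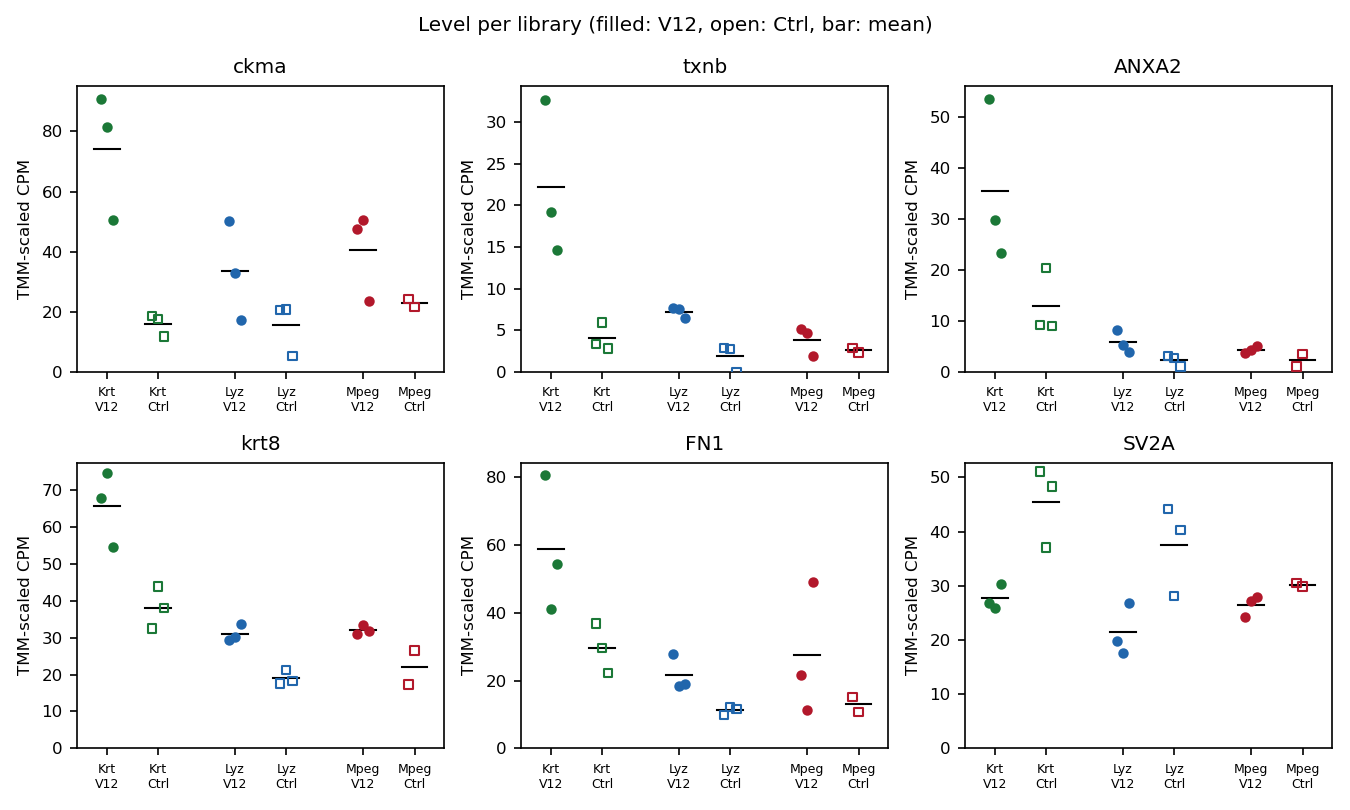
TMM-scaled CPM (linear axis from 0) of 6 genes in each of the 17 libraries, V12 filled and Ctrl open, by cell type, with the group mean as a bar. V12 libraries lie above Ctrl libraries in all 3 cell types for ANXA2 and krt8, in Krt and Lyz for txnb and FN1 and in Krt for ckma, while SV2A lies below in all 3.

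Thioredoxin was the gene outside muscle with the smallest adjusted p. The transcript annotated as txnb (ENSDARG00000044125, for which txn is an older name) had 32.7, 19.2 and 14.6 CPM in Krt V12, against 3.34, 5.94 and 2.79 in Krt Ctrl. In Lyz it had 7.66, 7.52 and 6.42 CPM with V12, against 2.86, 2.78 and 0 with Ctrl, and in Mpeg 5.16, 4.62 and 1.84 with V12, against 2.87 and 2.33 with Ctrl. The groups were apart in Krt and Lyz and overlapped in Mpeg, where the third V12 library had the lowest value. The mean effect was 1.73 ± 0.25 (adjusted p = 1.68e-04, edgeR), with effects of 2.46 in Krt, 1.93 in Lyz and 0.80 in Mpeg. On the same values the exact stratified permutation test gave an unadjusted p = 0.00125 over 4000 arrangements. Txnb kept its call with each of the 17 libraries left out (1.60 to 1.82). It lost the call when only Lyz and Mpeg were averaged (adjusted p = 0.106, edgeR). Its level, with both constructs counted, differed among cell types and was highest in Krt. Among Ctrl libraries alone, the Krt values overlapped those of Lyz and of Mpeg.

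Most of the redox list did not pass. Of 31 tested genes of the thioredoxin and glutathione systems and of Nrf2 targets, 2 rose, txnb and the glutathione S-transferase gstp1.2, against 0.337% of all genes tested. A positive mean effect was found for 29 of the 31, against 8492 of all 16011 genes tested, with a median of 0.47. Gstp1.2 had 11.3, 10.95 and 4.82 CPM in Lyz V12, against 3.98, 3.44 and 2.34 in Lyz Ctrl, and 11.8, 7.61 and 5.61 in Krt V12, against 10, 7.36 and 6.14 in Krt Ctrl. The Lyz groups were apart and the Krt groups overlapped, with effects of 0.07 in Krt, 1.45 in Lyz and 1.32 in Mpeg (adjusted p of the mean = 0.0299, edgeR). The regulator NFE2L2 (0.48 ± 0.16, adjusted p = 0.285) and the thioredoxin reductase TXNRD3 (0.38 ± 0.15, adjusted p = 0.397) did not pass.

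Several genes of the epithelial cytoskeleton and of the wound response had effects of similar size in the 3 cell types. Annexin A2 (ANXA2), a calcium-dependent membrane-binding protein, had 53.4, 29.8 and 23.3 CPM in Krt V12, against 9.17, 20.4 and 8.93 in Krt Ctrl. It had 8.27, 5.197 and 3.95 CPM in Lyz V12, against 3.06, 2.704 and 1.04 in Lyz Ctrl, and 3.68, 4.28 and 5.03 in Mpeg V12, against 1.06 and 3.496 in Mpeg Ctrl. No V12 library overlapped with the Ctrl libraries of its cell type, although the level in Krt was several times that of the other cell types. The mean effect was 1.29 ± 0.24 (adjusted p = 0.00351, edgeR), with effects of 1.49 in Krt, 1.3 in Lyz and 1.07 in Mpeg. The exact permutation p was 0.00025, the smallest that the design allows. It restates that separation and is not adjusted for the choice of the gene from these values.

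Keratin 8 (krt8), a simple-epithelial keratin, was likewise apart in each cell type. It had 67.9, 74.6 and 54.5 CPM in Krt V12, against 32.5, 43.8 and 37.97 in Krt Ctrl, and 29.4, 30.1 and 33.6 in Lyz V12, against 17.6, 21.3 and 18.2 in Lyz Ctrl. In Mpeg it had 30.8, 33.6 and 31.8 CPM with V12, against 17.2 and 26.6 with Ctrl. The mean effect was 0.70 ± 0.14 (adjusted p = 0.0104, edgeR), with effects of 0.79 in Krt, 0.71 in Lyz and 0.59 in Mpeg. It was the 1 gene past the threshold in edgeR among 28 tested keratinocyte genes, whose median was 0.28, and DESeq2 called 4. Of all genes tested 0.356% passed in edgeR. The 2 most abundant of these did not pass in edgeR (krt4 did in DESeq2, adjusted p = 0.0494): krt4 had effects of -0.12 in Krt, 0.55 in Lyz and 1.01 in Mpeg, and krt5 -0.30 in Krt, -0.26 in Lyz and 1.15 in Mpeg. The summed keratinocyte level was 2531 to 3073 CPM in Mpeg V12, against 1588 to 1751 in Mpeg Ctrl, whereas V12 and Ctrl overlapped in Krt and Lyz; the part of this in the Mpeg effects was not tested.

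Fibronectin (FN1), a matrix glycoprotein laid down in wounds, had 80.8, 41.1 and 54.5 CPM in Krt V12, against 36.9, 29.7 and 22.2 in Krt Ctrl, and 27.7, 18.5 and 19.1 in Lyz V12, against 9.801, 12.2 and 11.7 in Lyz Ctrl. In Mpeg it had 21.7, 11.4 and 49.2 CPM with V12, against 15.1 and 10.8 with Ctrl, where the groups overlapped. The effects were 0.96 in Krt, 0.91 in Lyz and 0.95 in Mpeg, and their mean was 0.94 ± 0.20 (adjusted p = 0.0222, edgeR). Complement factor B (cfb), of the alternative pathway, had 2.58, 2.82 and 2.84 CPM in Lyz V12, against 1.63, 0.877 and 0.5201 in Lyz Ctrl, and 4.696, 2.59 and 6.96 in Mpeg V12, against 1.51 and 1.08 in Mpeg Ctrl. The groups were apart in both, Krt groups overlapped, and of the genes outside muscle cfb had the smallest p for all 3 cell types together (0.0143 unadjusted, adjusted p = 1, edgeR). Its effects were 1.18 in Krt, 1.3 in Lyz and 1.65 in Mpeg (mean 1.38 ± 0.30, adjusted p = 0.0222), and ceruloplasmin (CP), a copper-carrying acute-phase protein, 0.84 in Krt, 1.39 in Lyz and 1.40 in Mpeg (mean 1.21 ± 0.28, adjusted p = 0.0367). SBNO2, a transcriptional co-regulator downstream of IL-10 and STAT3 in mammals, had 11.1, 9.69 and 12.6 CPM in Lyz V12, against 2.55, 5.48 and 2.08 in Lyz Ctrl, and 13.3, 12.4 and 15.1 in Mpeg V12, against 10.3 and 12.3 in Mpeg Ctrl. It was apart in each cell type, in Mpeg by a small margin, and had unequal effects of 1.06 in Krt, 1.64 in Lyz and 0.29 in Mpeg (adjusted p of the mean = 0.00519). The major vault protein MVP (mean 0.84 ± 0.18) and the kinase MKNK2, which phosphorylates eIF4E (mean 0.84 ± 0.19), were apart in each cell type too, MKNK2 with a narrow margin in Mpeg. In all, 8 of the 57 genes were apart in each of the 3 cell types, against 0.181% of the genes tested, in either direction. As the 57 were selected on these values, this count is a description only. Of 18 tested genes of wounds and matrix remodelling, 3 rose, FN1, ANXA2 and MMP9 (also on the neutrophil list), against 0.337% of all genes tested. The list median was 0.54. With the 17 libraries left out in turn, FN1 kept its call in 9 fits, MMP9 in 10 and ANXA2 in 16.

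Other members of the cytoskeleton group were less even. Moesin (MSN), which links actin to the membrane, had 39.2, 40.5 and 25.1 CPM in Krt V12, against 8.75, 11.3 and 12.1 in Krt Ctrl, and in Lyz 36.3, 29.8 and 28.5 CPM with V12, against 15.1, 37.1 and 13.5 with Ctrl. The groups were apart in Krt, and Lyz Ctrl replicate 2 was the highest Lyz library. GFAP, the intermediate filament of glia, had 20.99, 20.1 and 14.2 CPM in Krt V12, against 10.8, 11.3 and 10.2 in Krt Ctrl, and in Mpeg 13.6, 13.04 and 10.6 CPM with V12, against 5.295 and 8.32 with Ctrl, with V12 higher in 8 of 8 pairs and effects of 0.75 in Krt, 0.55 in Lyz and 0.98 in Mpeg. The actin-severing protein gelsolin (GSN) had effects of 0.91 in Krt, 1.52 in Lyz and 0.90 in Mpeg (adjusted p of the mean = 0.0436, edgeR). Of the genes without a named role, ENSDARG00000101809 had 15.1, 10.96 and 8.91 CPM in Krt V12, against 2.71, 2.26 and 3.07 in Krt Ctrl and effects of 2.00 in Krt, 0.88 in Lyz and 0.70 in Mpeg, si:ch211-114n24.6 effects of 0.42 in Krt, 0.76 in Lyz and 1.29 in Mpeg, and si:dkeyp-68b7.12 effects of 1.43 in Krt, 1.57 in Lyz and 0.65 in Mpeg.

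Some genes of a neutrophil list were higher in V12, while no gene of a macrophage list passed. MPEG1, lygl1 and fcer1gl, which passed, were not on the macrophage list, and 1 of its symbols was not matched. Of the 8 leukocyte genes past the threshold, 7 had their highest level in Mpeg libraries and 1 in Lyz libraries. Of 17 tested neutrophil genes, 4 rose (lyz, LCP1, MYO1F and the gelatinase MMP9), against 0.337% of all genes tested. All 17 had a positive mean effect, against 8492 of all 16011 genes tested, with a median of 1.1. In each cell type 14 were positive, against 18.1% of all genes tested. The granule enzyme lyz had 45.4, 46.3 and 17.04 CPM in Lyz V12, against 14.7, 14.3 and 2.08 in Lyz Ctrl. It was near the detection limit in keratinocyte libraries, with 1.13, 0.913 and 0.982 CPM in Krt V12, against 0.417, 0 and 0.279 in Krt Ctrl, and had 1.75, 2.76 and 0 in Mpeg V12, against 0.303 and 1.33 in Mpeg Ctrl. The mean effect was 1.71 ± 0.38 (adjusted p = 0.0311, edgeR), which was not called by DESeq2 (adjusted p = 0.114) or with depth as a covariate (adjusted p = 0.463). L-plastin (LCP1), an actin-bundling protein of white blood cells, had 19.8, 16.6 and 14.6 CPM in Lyz V12, against 3.47, 7.82 and 4.16 in Lyz Ctrl, and 60.7, 49.9 and 25.2 in Mpeg V12, against 35.1 and 51.1 in Mpeg Ctrl. The Lyz groups were apart and the Mpeg groups overlapped, with effects of 1.22 in Krt, 1.81 in Lyz and 0.28 in Mpeg (adjusted p of the mean = 0.00829), and its highest levels in Mpeg. MMP9, which degrades matrix, had 5.78, 3.04 and 2.74 CPM in Krt V12, against 1.04, 0.566 and 0.977 in Krt Ctrl, and 3.88, 2.52 and 3.09 in Lyz V12, against 0.5105, 0.365 and 0 in Lyz Ctrl. Both were apart, whereas in Mpeg it ran widely, with 1.47, 0.475 and 9.73 in V12, against 1.82 and 0.416 in Ctrl (mean effect 2.21 ± 0.47, adjusted p = 0.0219, edgeR). The class I myosin MYO1F had 4.995, 4.54 and 3.95 CPM in Lyz V12, against 0.919, 1.02 and 0 in Lyz Ctrl, and effects of 1.11 in Krt, 2.80 in Lyz and 0.60 in Mpeg. Its levels were highest in Mpeg, where the groups overlapped, with 13.8, 21.6 and 6.12 CPM with V12, against 7.11 and 15.3 with Ctrl.

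The neutrophil list summed to 73.7 to 146 CPM in Lyz V12, against 22.6 to 51.7 in Lyz Ctrl, and to 22.7 to 24.96 in Krt V12, against 9.91 to 16.1 in Krt Ctrl. In Mpeg it was 81.9 to 167 CPM with V12, against 81.4 to 131 with Ctrl, so that V12 and Ctrl were apart in Lyz and Krt only. The sum of 6 genes listed as neutrophil markers (lyz, npsn, NCF1, mmp13a, cebp1, CSF3R) was higher in V12 without overlap in all 3 cell types: 5.18 to 8.14 CPM in Krt V12, against 2.65 to 5.002 in Krt Ctrl; 40.9 to 98.4 in Lyz V12, against 11.7 to 36.0 in Lyz Ctrl; and 14.9 to 22.0 in Mpeg V12, against 8.02 to 13.9 in Mpeg Ctrl. In Mpeg this sum is not specific to neutrophils, since NCF1 averaged 4.38 TPM in Mpeg, against 1.17 in Lyz, and CSF3R 0.566 in Mpeg, against 0.112 in Lyz. CSF3R was at 0 in 3 of 6 Krt and 3 of 6 Lyz libraries. The macrophage list had a median of 0.56, and 0 of its 18 tested genes passed in edgeR or DESeq2 (2 at an unadjusted p under 0.05). Of the 18, 13 had a positive mean effect and 9 were positive in all 3 cell types, against 18.1% of all genes tested.

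Several leukocyte and cytokine genes rested on few counts. The cytokine il1b had 2.395, 6.09 and 0.281 CPM in Krt V12, and was at 0 in all 3 Krt Ctrl libraries, so the Krt level was at least 4.63-fold higher in V12 against a floor of 3 counts per library. In Lyz it had 1.46, 0.555 and 0.864 CPM with V12, against 0, 0.365 and 0 with Ctrl, and in Mpeg 1.93, 1.81 and 2.94 with V12, against 0.151 and 2.16 with Ctrl. The mean had an adjusted p of 0.0222 (edgeR). Of 11 tested cytokine and NF-kB genes 1 passed, il1b itself, against 0.356% of all genes tested, with a list median of 0.72. DESeq2 gave il1b no adjusted p and called nfkbiab, an inhibitor of NF-kB, instead (adjusted p = 0.048, against 0.119 in edgeR). The lysozyme lygl1 was at 0 in all Krt Ctrl libraries too and at least 2.29-fold higher in Krt V12, and in Mpeg it had 7.64, 11.1 and 6.46 CPM with V12, against 3.18 and 5.08 with Ctrl. A gene annotated as MPEG1 (ENSDARG00000043093), a name of perforin-like proteins of macrophages that several genes share and that was not matched to the gene of the mpeg1 promoter, had 2.85, 2.46 and 3.02 CPM in Mpeg V12, against 0.151 and 0.416 in Mpeg Ctrl. It was at 0 in all Lyz Ctrl libraries and at least 1.08-fold higher in Lyz V12. Pleckstrin (PLEK), a protein kinase C substrate of leukocytes and platelets, had 3.96, 2.27 and 2.35 CPM in Lyz V12, against 0, 0.9502 and 0 in Lyz Ctrl, and 5.52, 5.398 and 3.27 in Mpeg V12, against 1.21 and 2.497 in Mpeg Ctrl. Both were apart, and in Krt, at up to 1.13 CPM with V12 against 0 with Ctrl, the values were too low for a fold. The Fc receptor subunit fcer1gl (adjusted p = 0.0418), the myosin MYO1G (adjusted p = 0.0401) and tnfaip2b (adjusted p = 0.0339, edgeR), whose mammalian relative TNF induces, passed on levels of at most 6.62 CPM in each Krt and Lyz library. In 8 of the 57 genes a Ctrl group lay at that floor, and their fitted fold changes depend on the prior count.

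**Figure D3:**
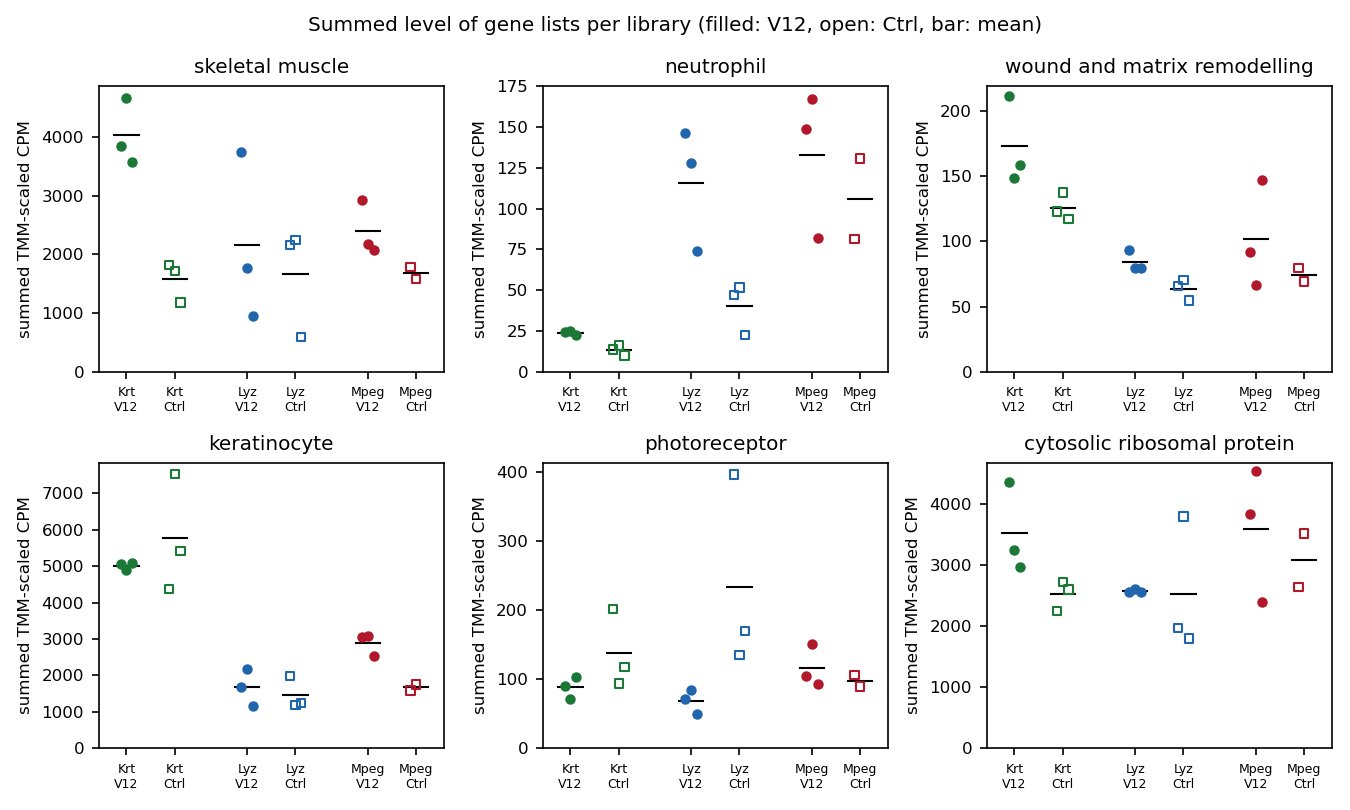
Summed TMM-scaled CPM (linear axis from 0) of 6 gene lists in each of the 17 libraries, V12 filled and Ctrl open, by cell type, with the group mean as a bar. Skeletal muscle is 3569 to 4662 CPM in Krt V12 against 1182 to 1821 in Krt Ctrl, and photoreceptor genes are 50.3 to 84.5 CPM in Lyz V12 against 135 to 396 in Lyz Ctrl.

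Few genes were lower. SV2A, a glycoprotein of synaptic vesicles, had 26.8, 25.9 and 30.4 CPM in Krt V12, against 51.1, 37.1 and 48.3 in Krt Ctrl, and 19.9, 17.6 and 26.8 in Lyz V12, against 44.2, 28.1 and 40.3 in Lyz Ctrl. In Mpeg it had 24.2, 27.2 and 27.9 CPM with V12, against 30.6 and 29.9 with Ctrl, so that the groups were apart in each cell type. The mean effect was -0.60 ± 0.14 (adjusted p = 0.0435, edgeR), which passed with 5 of the 17 libraries left out in turn. The neuron list as a whole had a median of -0.12 over 22 tested genes, of which SV2A alone passed; scaled by library size only, it was 0.41, beside 0.55 for all genes. COL12A1, a fibril-associated collagen (-0.70 ± 0.17, adjusted p = 0.0558), and the calcium pump atp2b3b (-0.66 ± 0.16, adjusted p = 0.0584) were next in order and lay just outside the threshold.

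The other 2 lower genes belong to cone photoreceptors and had negative fitted effects in Krt and Lyz and none below 0 in Mpeg, where GNGT2 had 12.6, 15.2 and 4.697 CPM with V12, against 13.9 and 9.905 with Ctrl; the difference among cell types missed the threshold for both (adjusted p = 0.0881 for opn1lw2 and 0.398 for GNGT2, edgeR). The long-wavelength opsin opn1lw2 had 3.19, 3.84 and 2.96 CPM in Lyz V12, against 21.5, 10.2 and 9.36 in Lyz Ctrl, and 3.66, 2.44 and 2.88 in Krt V12, against 11.05, 7.64 and 5.86 in Krt Ctrl. In Mpeg the order was turned, with 6.26, 8.03 and 5.96 CPM in V12, against 4.54 and 5.08 in Ctrl, and the 3 effects were -1.37 in Krt, -1.98 in Lyz and 0.62 in Mpeg (adjusted p of the mean = 0.0378, edgeR). The transducin gamma subunit GNGT2 had 4.56, 7.62 and 4.07 CPM in Lyz V12, against 58.5, 15.1 and 22.6 in Lyz Ctrl, which did not overlap, and effects of -1.04 in Krt, -2.38 in Lyz and 0.05 in Mpeg (adjusted p of the mean = 0.0222). Over the 24 tested photoreceptor genes, 2 fell and 0 rose, where 0.0187% of all genes tested fell. At an unadjusted p under 0.05 (edgeR) 12 were lower, against 512 of all 16011 genes tested. A positive mean effect was found for 1 of the 24. Of the 24, 4 were negative in all 3 cell types, a share near the 14.6% of all genes tested. The list's median was -0.79, with medians of -0.37 in Krt, -2.37 in Lyz and 0.42 in Mpeg. Averaged over Krt and Mpeg alone, the list's median was 0.07. Lyz Ctrl replicate 1 held the highest sum of this list, 396 CPM.

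Cytosolic ribosomal proteins showed a small shift in one direction. Of 73 tested genes, 72 had a positive mean effect, against 8492 of all 16011 genes tested, with a median of 0.32. In all 3 cell types 48 were positive, against 18.1% of all genes tested. In edgeR 0 passed the threshold (34 at an unadjusted p under 0.05), and 5 passed in DESeq2. RPS2 had a mean effect of 0.24 ± 0.14 and RPL3 0.07 ± 0.14, within 2 SE of 0 in each case and below the list's median. In RPL26, log2 CPM of V12 minus Ctrl was 0.774, 0.669 and 0.005 in the Krt pairs. It was 0.124, 0 and 0.14 in the Lyz pairs and 0.495 and 0.375 in the Mpeg pairs. The summed level was 2962 to 4369 CPM in Krt V12, against 2244 to 2722 in Krt Ctrl. It was 2553 to 2615 CPM in Lyz V12, against 1797 to 3796 in Lyz Ctrl, and 2396 to 4543 in Mpeg V12, against 2637 to 3516 in Mpeg Ctrl, so only the Krt groups were apart. Without any scaling beyond library size the median of all genes moved to 0.55 and that of this list to 0.86.

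Genes that Ras signalling is known to induce did not move together over the 3 cell types. Of 26 tested genes of MAPK feedback and targets, 0 passed in edgeR or DESeq2 (3 at an unadjusted p under 0.05), and the median was 0.19, or -0.14 over the 8 with a mean of at least 50 counts. DUSP6, the phosphatase of ERK that ERK signalling induces, had a mean effect of 0.20 ± 0.17 (adjusted p = 0.792, edgeR). Within cell types the medians of this list were 0.49 in Krt, 0.13 in Lyz and 0.13 in Mpeg, and 20 of the 26 were higher in Krt, 14 in Lyz and 14 in Mpeg. Its summed level was 137 to 155 CPM in Krt V12, against 109 to 115 in Krt Ctrl, without overlap, whereas the Lyz and Mpeg groups overlapped. In edgeR 0 genes passed among 15 immediate-early genes (median effect 0.41, 5 at an unadjusted p under 0.05), 21 heat shock genes (0.21, 5), 15 genes of endoplasmic reticulum stress (0.13, 0), 24 cell cycle genes (0.30, 1) and 3 interferon genes (0.55, 0), and in DESeq2 1 heat shock gene did. All 24 cell cycle genes had a positive mean effect, against 8492 of all 16011 genes tested. But 7 were positive in all 3 cell types, with medians of 0.17 in Krt, 0.74 in Lyz and -0.005 in Mpeg. In both tools 0 genes passed among 7 erythroid genes (median effect 0.78, 3 at an unadjusted p under 0.05), 13 lens genes (0.22, 0), 17 genes of cartilage and connective tissue (-0.35, 5) and 13 mitochondrially encoded genes (-0.10, 0). The 5 of cartilage and connective tissue were 4 lower and 1 higher, and the median of that list was -0.58 in Krt, -0.22 in Lyz and 0.21 in Mpeg. The lipoprotein gene apoeb, which macrophages and the yolk syncytial layer express, was the 1 that rose of 17 genes of liver, pancreas and yolk, against 0.337% of all genes tested. It had 45.1, 23.7 and 15.6 CPM in Krt V12, against 14.4, 9.901 and 9.91 in Krt Ctrl, with effects of 1.2 in Krt, 0.75 in Lyz and 0.86 in Mpeg (mean 0.94 ± 0.17, adjusted p = 0.00345). Of 32 actin cytoskeleton genes, moesin (MSN) rose, with effects of 1.64 in Krt, 0.62 in Lyz and 0.18 in Mpeg. This list had a median of 0.45, with 29 genes positive, against 8492 of all 16011 genes tested. At an unadjusted p under 0.05 (edgeR) 16 were higher, against 983 of all 16011. In all 3 cell types 19 of the 32 were positive, against 18.1% of all genes tested. Of 23 glycolytic genes (median 0.24, 5 at an unadjusted p under 0.05) aldolase A (ALDOA) rose, with 1.37 in Krt, 0.45 in Lyz and 1.54 in Mpeg. Among 12 endothelial genes 0 passed in edgeR or DESeq2 (4 at an unadjusted p under 0.05), and their summed level was 34.7 to 57.2 CPM in Krt V12, against 11.03 to 17.6 in Krt Ctrl, with a median effect of 1.63 in Krt and -0.36 in Mpeg.

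The 2 genes listed as HRAS gave no check of the labels, since both constructs carry HRas and no counted feature is a plasmid. ENSDARG00000005651 had 8.73, 1.83 and 4.84 CPM in Krt V12, against 3.96, 1.697 and 3.91 in Krt Ctrl, and the groups overlapped. Its mean effect was 0.26 ± 0.27 (exact permutation p = 0.485), and that of ENSDARG00000098497 was 0.26 ± 0.33 (exact permutation p = 0.494).

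**Figure D4:**
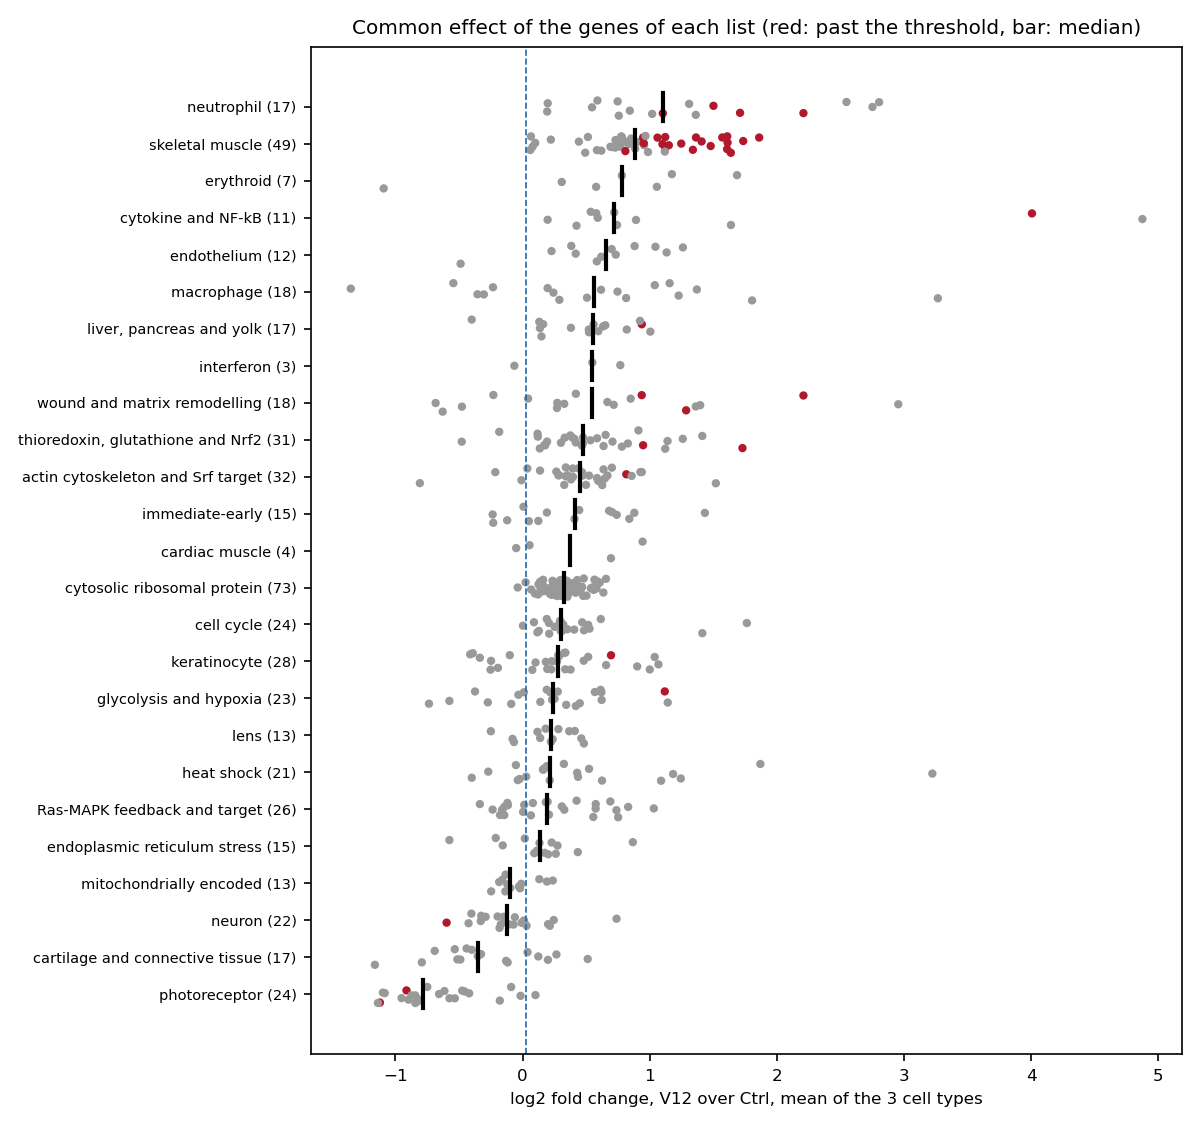
Mean log2 fold change of V12 over Ctrl for each tested gene of 25 lists (number tested in parentheses), with genes past the threshold in red, list medians as bars and the median of all genes tested, 0.03, as a dashed line. All 49 skeletal muscle genes lie to the right of 0, and 20 of them are past the threshold.

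Leaving out the 3 libraries with under 500000 counts outside the 10 most abundant features (Krt V12 2, Krt Ctrl 2 and Lyz Ctrl 3) kept 31 of the 57 calls, and a covariate for that depth kept 37. With the skeletal muscle list these fits called 16 and 18 genes, and with the neutrophil list 0 and 3. Both were chosen after the data were seen.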

How the data were processed

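Polysomal RNA was isolated by TRAP from 18 samples and amplified with a NuGEN Ovation kit made for single cells. The authors used Bowtie 1.1.1 and RSEM 1.2.20 on GRCz10 (submitters' processing notes; the annotation release is not given in the sources used here), and the deposited tables hold expected counts and TPM per gene. RSEM shares reads among near-identical genes, so values of gene families such as the troponins and MFAP4 copies are uncertain, and few molecules amplified many times make counting error an underestimate. Expected counts were rounded and scaled by TMM, genes were filtered by filterByExpr over 6 groups (16011 of 31953 kept), and a quasi-likelihood model with group and replicate number was fitted in edgeR 4.0.16 (R 4.3.3, limma 3.58.1) to 17 libraries. The tested contrast was the mean of the V12 minus Ctrl differences of Krt, Lyz and Mpeg. P-values were adjusted over all genes by Benjamini-Hochberg (threshold 0.05), and fold changes use a prior count of 0.125. The effects within cell types, their difference and the level among cell types came from the same fit. For single genes, V12 and Ctrl labels were exchanged within cell types in an exact two-sided permutation test on log2(CPM + 0.5) over 4000 arrangements, which can give no p under 0.00025. That test has no term for the replicate number, and its p-values are not adjusted over genes. For genes past the threshold it reuses the values on which they were called. TPM served only for marker levels.

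The labels give the replicate number as batch, so the number stayed in the model as a block. Deviations of V12 and Ctrl libraries of one cell type and number correlated between -0.0835 and 0.346 (median 0.111 over 8 pairs and 4543 genes). Per the study, larvae were collected on separate days, and p-values measure the spread between these pools.

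Named were txn, the HRAS genes, the 15 genes of lowest adjusted p that shared 1 sign across cell types, for each direction (3 just outside the threshold where fewer passed), genes past the threshold without 1 direction, the 5 smallest p over all 3 cell types and up to 3 abundant genes per list; other genes past the threshold were named after their values were seen, and lists without a gene past it are given mostly by counts and medians. The 25 lists, the comparison and the roles were chosen with earlier results of these data known. Gene names were matched for 26121 of 31953 IDs; names in capitals are those of human orthologues. Alternatives were other scalings, filters, DESeq2 1.42.0, other replicate terms, left-out libraries, means of 2 cell types and 2 depth checks added after seeing the data. The model was also run on simulated data. No outcome of that run is given here, so it is not support for the calls, least of all for genes with few counts.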

Additional observations from a re-analysis of the deposited data

Results flagged for a closer look

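The effect of HRasG12V differed among the 3 cell types for 6 genes (0.0375% of those tested; edgeR quasi-likelihood test of the difference itself, adjusted over 16011 genes). For 3 of them 1 to 3 libraries held most counts. The gene si:dkeyp-3b12.9 (adjusted p = 0.0263) had 2308 counts in Krt V12 replicate 2, 507 in Lyz Ctrl replicate 1 and 1147 in Lyz Ctrl replicate 3, and at most 7 in each other library. EEF1A1 (adjusted p = 0.0456), listed under the name of a translation elongation factor, had 4706 counts in Lyz Ctrl replicate 2 and at most 25 elsewhere, and the chaperone hsc70 (adjusted p = 0.0424) had 766 in that library and at most 39 elsewhere.

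A pair of phototransduction genes, the cone transducin alpha subunit GNAT2 (adjusted p = 0.0424) and the beta subunit gnb3b (adjusted p = 0.0456), had log2 fold changes of -0.82 and -0.66 in Krt, -2.48 and -2.65 in Lyz and 1.06 and 0.84 in Mpeg. GNAT2 averaged 4.04 CPM in Lyz V12, against 24.9 in Lyz Ctrl, and 10.2 in Mpeg V12, against 6.21 in Mpeg Ctrl. Lyz Ctrl replicate 1 held 468 of the counts of GNAT2 and 651 of those of gnb3b, more than any other library. Desmin (DES, adjusted p = 0.0424) had effects of 3.48 in Krt, 1.23 in Lyz and -0.05 in Mpeg. Without Lyz Ctrl replicate 3 the number of such genes was 30, and without Krt V12 replicate 2, Krt Ctrl replicate 2, Krt Ctrl replicate 3 or Lyz V12 replicate 3 it was 0 (2 to 16 without each of the others); DESeq2 called 10, and 621 genes had an unadjusted p under 0.05.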

How the results depend on the processing

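The number of calls depended on the processing. The sign of the mean effect of each of the 57 genes did not, under each alternative that could test them. As the 57 were selected on these libraries, which the alternatives reuse, this describes them and is not separate support. It does not cover the signs within cell types. Counts are given as genes higher and lower, then those of 1 direction in all 3 cell types, then those whose effect differed among cell types (54 and 3, 52 and 1, and 6 as reported). With library size only they were 108 and 2, 108 and 1, and 13; with DESeq2 size factors 62 and 4, 58 and 2, and 6; without a filter 140 and 30, 132 and 22, and 69; with a mean of at least 50 counts 43 and 5, 40 and 4, and 0; with DESeq2 112 and 23, 106 and 20, and 10; with all 18 libraries 67 and 6, 65 and 3, and 21. With no replicate block they were 20 and 2, 19 and 1, and 2, and with the replicate block within each cell type 104 and 17, 98 and 13, and 13, where all 57 genes were called. Leaving out all libraries of replicate number 1 gave 20 and 6, 19 and 2, and 26, of number 2 64 and 11, 61 and 9, and 9, and of number 3 41 and 10, 39 and 9, and 6. The mean of Lyz and Mpeg gave 1 and 0, of Krt and Mpeg 34 and 0, and of Krt and Lyz 43 and 14; 1 additive term gave 42 and 1. Without the 3 shallow libraries there were 34 and 2, 32 and 1, and 0, and with depth as a covariate 37 and 6, 36 and 6, and 3. Over the 17 libraries left out in turn, 20 to 88 genes were higher and 0 to 13 lower, 19 to 85 and 0 to 9 of 1 direction, and 0 to 30 differed among cell types. The test of all 3 cell types gave 0 genes throughout. The causes of these shifts were not tested.

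Of the 57 genes, 19 were called with each library left out: 17 muscle genes, txnb and lygl1. DESeq2 called 54 of the 57. The median of the skeletal muscle list stayed between 0.57 and 1.35, that of the neutrophil list between 0.75 and 1.59 and that of the ribosomal protein list between 0.13 and 0.86; library size alone moved the median of all genes to 0.55. Low depth outside the 10 most abundant features limits genes such as il1b, PLEK, MPEG1 and lygl1, whose Krt or Lyz Ctrl libraries held few or no counts.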
